A study of Mus musculus with 2 samples.

Results

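Collagens that form networks or sit beside fibrils were followed in C2C12 cells, an established mouse myoblast line, after stable knockdown of Mybbp1a, a mainly nucleolar protein that also binds transcription factors. The 10 genes were the type IV chains Col4a1, Col4a2 and Col4a5, the type VI chains Col6a1, Col6a2 and Col6a3, and Col8a1, Col12a1, Col15a1 and Col18a1. They were found by their gene name in the array files, which gave 19 of 41174 distinct probes, and 9 of the 18078 genes that could be tested. The genes were chosen with their ratios of knockdown over control on these arrays known, so these ratios are given as a description with no test.

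Per the labels, the knockdown cells stably expressed a short hairpin RNA against Mybbp1a and the control cells stably expressed a control hairpin. Both were mixtures of stable clones of a line from leg muscle of an adult C3H mouse, grown subconfluent in DMEM with 20% fetal bovine serum. On each of the 2 arrays, called biological replicates in the labels, Cy5 marked the knockdown RNA and Cy3 the control RNA. No dye swap was made, so a dye bias and the knockdown cannot be told apart. Whether these were separate cultures is not given, so the spread between arrays may be technical.

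Type IV collagen forms the sheet-like network of basement membranes, in which alpha 1 and alpha 2 chains combine in the common trimer and alpha 5 joins other trimers. Type VI collagen, built from alpha 1, alpha 2 and alpha 3 chains, forms beaded microfilaments around muscle fibres, and mutations in its human genes cause congenital muscular dystrophies. Type VIII collagen forms lattices in vessel walls and the cornea, type XII decorates the surface of collagen fibrils, and types XV and XVIII carry heparan or chondroitin sulfate chains near basement membranes. In muscle these matrix proteins come largely from fibroblasts, although myoblasts also make several of them.

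The probes are 60 bases long, and those of the genes with the largest ratios, or with probes to compare, are shown here so that the measured stretch of each transcript can be identified. Where a gene has several, the first given is the brightest, which stands for the gene in every gene-level value. Of some only the first 30 bases are given.
Col6a1 probe A_51_P474496, first 30 bases: tccatgctcaacatgaagcagaccttctca
Col6a2 probe A_51_P279639, first 30 bases: ttctttgacaggttcatccgctggatctgt
Col6a2 probe A_52_P362757, first 30 bases: gttccccttttggttgatatcagggaagaa
Col6a3 probe A_52_P479262, first 30 bases: atggtcccagttttctggattagacttcga
Col6a3 probe A_52_P573586, whole: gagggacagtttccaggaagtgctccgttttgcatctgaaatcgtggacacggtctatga
Col4a1 probe A_51_P124254, first 30 bases: ttttcgtctctggagaaactgtactatcct
Col4a1 probe A_52_P518827, whole: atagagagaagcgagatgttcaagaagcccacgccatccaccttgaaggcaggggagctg
Col4a2 probe A_51_P491350, first 30 bases: cagtcttcctaaaatgaggcagagtctagg
Col4a2 probe A_52_P496142, whole: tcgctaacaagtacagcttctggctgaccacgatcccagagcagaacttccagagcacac
Col18a1 probe A_51_P191700, first 30 bases: agcattcagtcagcacccagggctctggct
Col18a1 probe A_52_P261846, whole: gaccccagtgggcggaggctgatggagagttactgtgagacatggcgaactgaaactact
The files place these probes on mouse build mm8, on which no exon annotation was used here. The Col6a1 probe lies at chr10:76152870-76152929 on the minus strand. The Col6a2 probes lie at chr10:76039902-76039961 and chr10:76045538-76045597 on the same strand, 5576 bp apart, the first designed from a RefSeq transcript and the second from a cDNA clone. The Col6a3 probes lie at chr1:92597492-92597551 and chr1:92632986-92633045 on the minus strand. The Col4a1 probes lie on the minus strand at chr8:11198981-11199040 and over chr8:11199818-11201652, a span of 1835 bp that is wider than the probe. The Col4a2 probes lie at chr8:11448812-11448871 and chr8:11448152-11448211 on the plus strand. The Col18a1 probes lie at chr10:76496791-76496850 and chr10:76497036-76497095 on the minus strand.

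Mybbp1a itself had log2 ratios of -1.64 and -1.91 on arrays 1 and 2, with a mean of -1.78 ± 0.19 (SD, n = 2), which is 3.42-fold lower in the knockdown cells. The median spot signal of the arrays ran from 329 to 449 in Cy5 and from 159 to 184 in Cy3, and 64.9% to 79.7% of non-control spots in a channel were well above background. All 6 myoblast markers chosen (Myod1, Myf5, Des, Cdh15, Itga7 and Chrna1) were well above background on both arrays in either group. So were, in knockdown and in control cells, 3 and 3 of 4 smooth muscle markers, 4 and 3 of 5 of endothelium, 3 and 2 of 6 of leukocytes, 1 and 0 of 4 of adipocytes and 4 and 4 of 4 of Schwann cells. Among the defining markers, Myh11, Pecam1, Ptprc and Adipoq were not in either group. In limma's fit across all genes, 0 of 18078 genes passed a Benjamini-Hochberg adjusted p of 0.05, and at an unadjusted p under 0.05 there were 2415 higher and 1356 lower. That share of 0% in each direction is the background for calls, and the fit had 1 residual degree of freedom.

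With the offset of 50 used here, Col6a1 had the highest ratio of the 9 tested genes on each array and its partner chain Col6a2 the next highest mean. The dim gene Col12a1 passed Col6a1 on array 1 with processed signals (3.0 against 1.46) and without an offset (1.69 against 1.49), and its mean passed that of Col6a2 with processed signals (1.49 against 1.20). Col6a3 stayed near 0 (0.46 with median centring in place of loess, which moved the median of all genes to 0.21). Col6a1, the alpha 1 chain of type VI collagen, read 3367 and 5034 units of normalised intensity in knockdown cells on arrays 1 and 2, against 1226 and 887 in control cells. Intensities are loess-normalised spot signals with an offset of 50 added, and are compared within an array and a probe only. On each array the knockdown reading was far above the control reading. The log2 ratios were 1.46 and 2.50, with a mean of 1.98 ± 0.74 (SD, n = 2) and a fold of 3.95, at ranks 100 and 29 from the top of 18078 genes.

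Col6a2, the alpha 2 chain, read 431 and 698 units in knockdown cells, against 246 and 348 in control cells, with its brighter probe. The knockdown reading was the higher on each array. Its log2 ratios were 0.81 and 1.00, a mean of 0.91 ± 0.14 or 1.87-fold. The other Col6a2 probe, from the cDNA clone, read 630 and 563 units in knockdown cells, against 247 and 188 in control cells. The files name it Col6a2, and whether it matches the RefSeq transcript was not checked. Its ratios were 1.35 and 1.58, so the probes differed by 0.54 and 0.58 on the log2 scale while each gave nearly the same value on both arrays.

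Col6a3, the large alpha 3 chain, read 29845 and 31067 units in knockdown cells, against 27022 and 32099 in control cells. The knockdown reading was the higher on array 1 and the lower on array 2, with log2 ratios of 0.14 and -0.05 and a mean of 0.05 ± 0.13. The second tested Col6a3 probe, 35434 bp away, had ratios of 0.13 and -0.17. A further Col6a3 probe, A_52_P675592, was not well above background on array 1 and stayed out of the fit, with -0.07 and -0.23. The log2 ratio of Col6a1 exceeded that of Col6a3 by 1.31 on array 1 and 2.55 on array 2, and that of Col6a2 exceeded it by 0.67 and 1.05. The 3 chains of type VI collagen therefore did not share 1 ratio on either array.

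**Figure D1:**
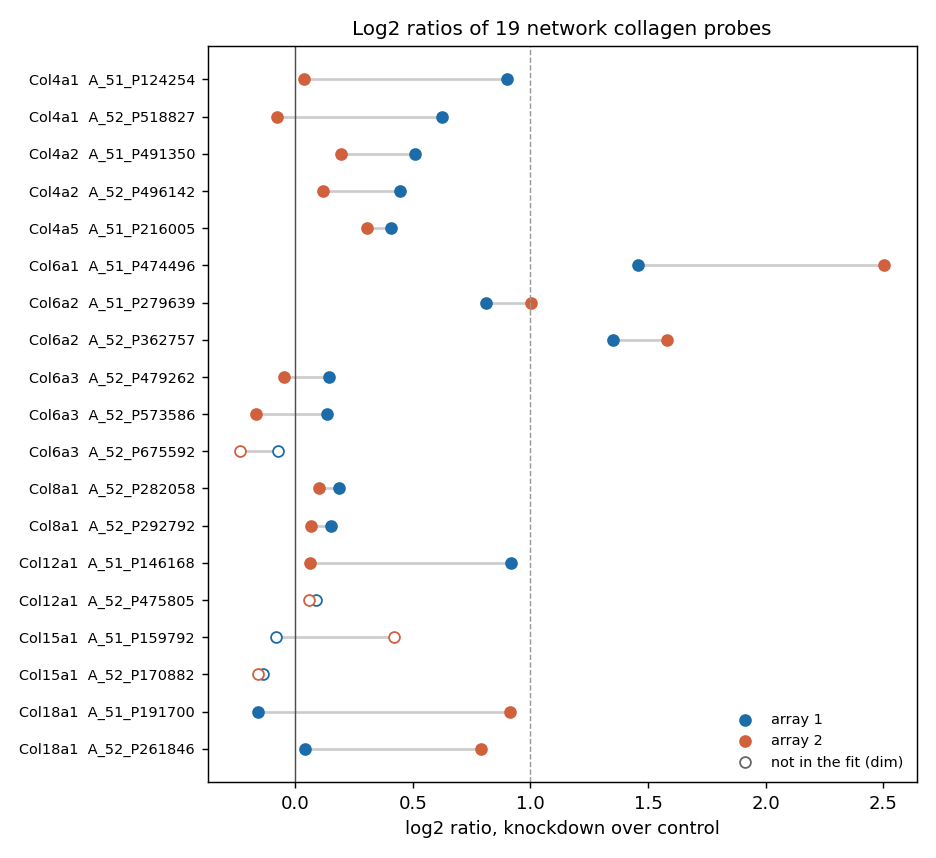
Log2 ratio of knockdown over control (x axis) for each of the 19 probes of the 10 genes (rows), with array 1 and array 2 as separate points joined by a line. Filled points are the 15 probes in the fit and open points the 4 that were too dim, and the dashed line marks 2-fold. The points of Col6a1 and of the second Col6a2 probe lie beyond the dashed line on both arrays, while the Col6a3 and Col8a1 points lie close to 0 (means of 0.46 and 0.60 with median centring, not drawn).

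With loess, the type IV chains Col4a1, Col4a2 and Col4a5 were higher in knockdown cells on array 1 and closer to equal on array 2. Of the tested type IV chains outside the members, Col4a4 had 0.17 and -0.12, and Col4a6, with its brightest probe, -0.01 and 0.16. With median centring the array 2 ratios were 0.28 for Col4a1, 0.44 for Col4a2 and 0.52 for Col4a5. The array 1 ratios were then 1.16, 0.78 and 0.63. Col4a1, the alpha 1 chain, read 1702 and 2410 units in knockdown cells, against 911 and 2346 in control cells. Knockdown was well above control on array 1 and nearly equal to it on array 2. Its log2 ratios were 0.90 and 0.04, a mean of 0.47 ± 0.61, so that the spread between arrays was larger than the mean. The probe over the wider span gave 0.63 and -0.08, the same order of the arrays. Col4a1 stood at rank 322 on array 1 and at rank 8795 on array 2, near the middle of all genes.

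Col4a2, the alpha 2 chain, read 1749 and 2540 units in knockdown cells, against 1230 and 2216 in control cells. Its log2 ratios were 0.51 and 0.20, a mean of 0.35 ± 0.22, and its other probe, 600 bp away, gave 0.45 and 0.12. All 4 tested probes of these neighbouring genes thus had the larger ratio on array 1. Col4a5, the X-linked alpha 5 chain, read 855 and 699 units in knockdown cells, against 645 and 566 in control cells. Its ratios of 0.41 and 0.31, a mean of 0.36 ± 0.07, came from 1 probe and differed least between arrays among the type IV chains. The ratio of Col4a1 exceeded that of Col4a2 by 0.39 on array 1 and stood below it on array 2, with a difference of -0.16.

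**Figure D2:**
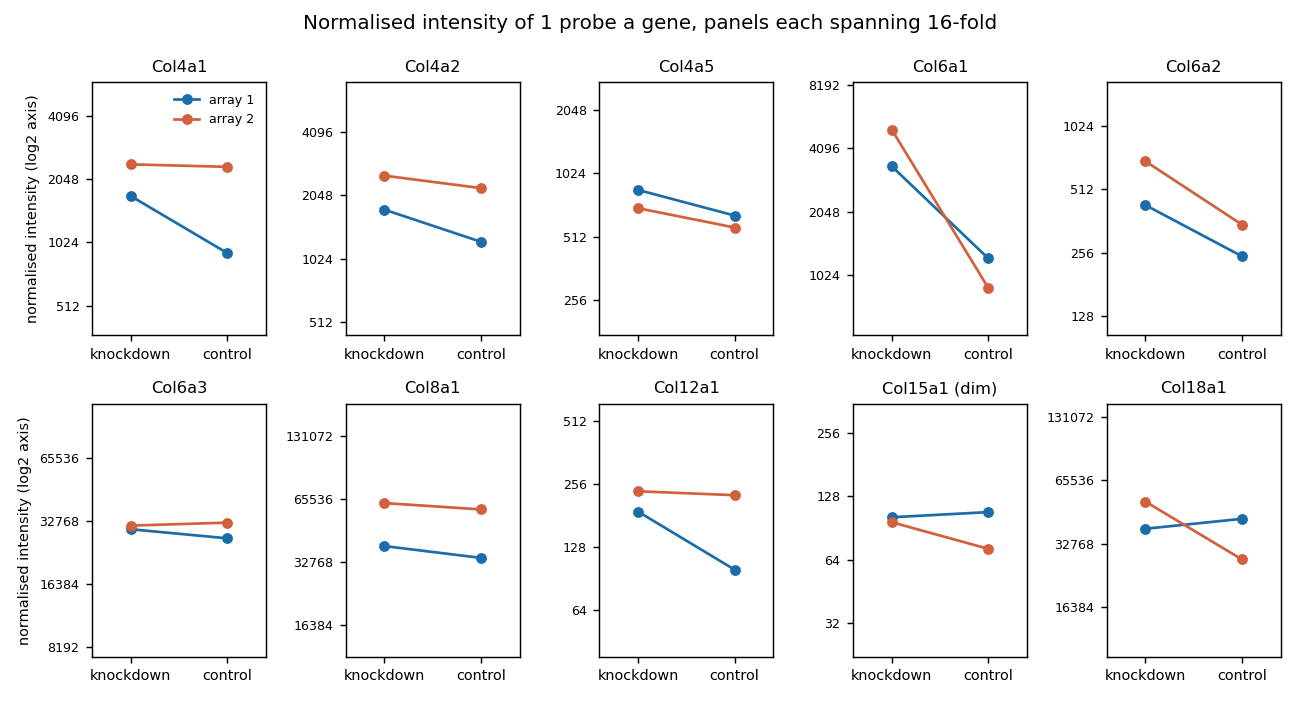
Normalised intensity (y axis, log2 scale, each panel spanning 16-fold) in knockdown (left) and control (right) cells for the probe that represents each gene, with 1 line for each array. The lines of Col6a1 and Col6a2 slope down toward the control on both arrays, those of Col4a1 and Col12a1 mainly on array 1, and that of Col18a1 on array 2. With loess both arrays are near level for Col6a3 and Col8a1, unlike with median centring, and the Col15a1 probe was not well above background.

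Col18a1, the type XVIII chain whose C-terminal part is released as endostatin, had the opposite order of the arrays. It read 38579 and 51973 units in knockdown cells, against 43021 and 27574 in control cells. Knockdown was the lower group on array 1 and the higher on array 2, with log2 ratios of -0.16 and 0.91 and a mean of 0.38 ± 0.76. The other Col18a1 probe, 185 bp away, gave 0.04 and 0.79. Both probes placed the gene near no difference on array 1 and well above it on array 2, although median centring gave 0.37 on array 1.

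Col8a1, the alpha 1 chain of type VIII collagen, was bright and nearly equal in the groups with loess, and had 0.60 with median centring. It read 39066 and 62622 units in knockdown cells, against 34319 and 58384 in control cells, with ratios of 0.19 and 0.10 and a mean of 0.14 ± 0.06. Its other probe gave 0.15 and 0.07, and no member probe carried a saturation flag (0 of 19).

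Col12a1, the type XII chain, was dim. It read 189 and 236 units in knockdown cells, against 99.8 and 226 in control cells, and the control on array 1 was not well above background. The ratios were 0.92 and 0.06, a mean of 0.49 ± 0.61, and with Feature Extraction's processed signals they were 3.0 and -0.01, a mean of 1.49. The second Col12a1 probe was not well above background in any channel, at 0.09 and 0.06. Col15a1, the type XV chain, was not well above background in any channel with either of its probes, so no fold is given. Its first probe read 102 and 96.4 units in knockdown cells, against 108 and 72.0 in control cells.

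Of the 9 tested genes, 7 had ratios above 0 on both arrays and 0 below 0 on both, where 40.6% and 29.4% of all tested genes did so. Col6a3 and Col18a1 had mixed signs. The 7 became 9 with median centring and 3 of 7 genes with values in the authors' deposited table. At least 2-fold on both arrays, 1 member (Col6a1) was higher and 0 were lower, against 0.631% and 0.0553% of all tested genes. These counts follow from how the genes were chosen and are printed beside the background only. The median ratio of the 9 genes was 0.51 on array 1 and 0.20 on array 2, with 0.03 for all genes on each.

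**Figure D3:**
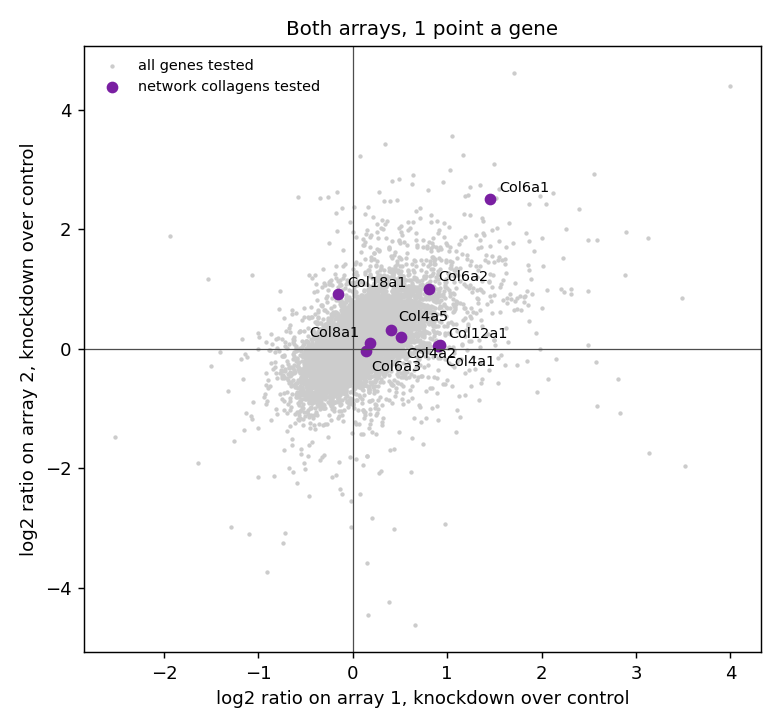
Log2 ratio of knockdown over control on array 1 (x axis) against array 2 (y axis), with 1 point for each of the 18078 genes tested (grey) and the 9 tested network collagens named (purple). Col6a1 and Col6a2 lie in the upper right, Col4a1 and Col12a1 to the right near 0 on array 2, and Col18a1 in the upper left.

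Related genes were read from lists chosen by function. For the counts in each list, 40.6% of all tested genes were above 0 on both arrays and 29.4% below. Fibrillar collagens, the banded structural collagens, had 10 of 11 genes tested, of which 6 were above 0 on both arrays and 0 below, with a median of 0.45, or 0.26 with the mean over a gene's tested probes and 0.30 in the authors' deposited table. Col1a1 of type I collagen had 1.71 and 4.60, Col3a1 of type III 0.75 and 1.82, and Col2a1 of cartilage collagen 0.56 and 1.52. Col27a1 lay nearest to 0, at -0.07 and 0.07. All tested genes of this list except Col5a3 and Col11a2, like Col6a1, had the larger ratio on array 2. Over all tested genes the SD of the ratios was 0.31 on array 1 and 0.43 on array 2.

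The non-fibrillar collagens outside the 10 genes had 11 of 23 tested, with 2 above 0 on both arrays, 0 below and a median of -0.01, or 0.15 with median centring. Col16a1, a fibril-associated collagen, had 0.88 and 1.20, and Col6a4, a further type VI chain, 0.26 and 0.10. Col25a1 lay nearest to 0, at -0.02 and 0.01. The median of all tested genes, to be set beside every list given here, was 0.03 with loess and the brightest probe. It was 0.21 with median centring, -0.01 in the authors' deposited table and 0.02 with the mean over tested probes.

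Other basement membrane components had 17 of 20 tested, with 12 above 0 on both arrays, 2 below and a median of 0.34, or 0.62 with median centring and 0.21 in the authors' deposited table. The linker protein Nid2 had 1.74 and 0.67, the proteoglycan Agrn 0.27 and 1.86, and the laminin chain Lama4 0.47 and 1.47. Nid2 and Lama4 were each not well above background in 1 of their 4 readings. Lamc3 lay nearest to 0, at 0.02 and -0.02. The list's median was 0.09 on array 1 and 0.50 on array 2, so the arrays differed here in the opposite order to Col4a1, Col4a2 and Col4a5.

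Enzymes and carriers that fold, modify and export collagen had 21 of 23 tested, with 12 above 0 on both arrays, 2 below and a median of 0.11, or 0.51 with median centring and 0.04 with the mean over tested probes. The prolyl 4-hydroxylase subunits P4ha1 and P4ha2 had 0.67 and 0.85, and 0.18 and 1.23. The prolyl 3-hydroxylase P3h2, which acts on type IV collagen, had 0.75 and 0.58, and Colgalt1 lay nearest to 0 at -0.19 and 0.18. Collagen receptors had 11 of 14 tested, with 7 above 0 on both arrays, 1 below and a median of 0.15, or 0.39 with median centring. The uptake receptor Mrc2 had 0.85 and 1.53 and the integrin subunit Itga11 had 0.62 and 0.65. Itga10 had 0.39 and 0.30, a mean of 0.34 or 1.27-fold. On neither array did its control pass background, so the size of its ratio is uncertain. Itgb1, the shared integrin partner, lay nearest to 0 at 0.02 and -0.04.

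**Figure D4:**
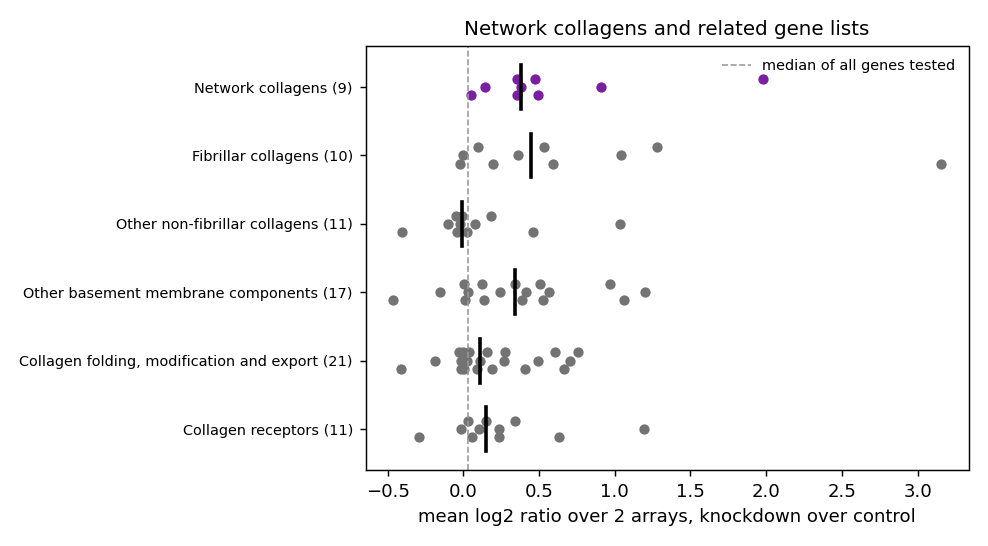
Mean log2 ratio over the 2 arrays (x axis) for each tested gene of the network collagens and of 5 related lists (rows, number of genes in brackets), with a bar at each median and a dashed line at the median of all tested genes. The median was 0.38 for the network collagens, 0.45 for fibrillar collagens and -0.01 for the other non-fibrillar collagens.

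Fibroblast marker readings were higher in knockdown cells beside those of the collagens. Of the 6 chosen, 4 were tested and all 4 had ratios above 0 on both arrays, although the Dpt control was well above background on 1 array only. Pdgfra had 0.98 and 1.77, Dpt 0.62 and 1.03, Dcn 0.25 and 1.38, and Lum 0.10 and 0.30. Their summed intensity was 12101 and 14001 units in knockdown cells, against 9570 and 5359 in control cells. In neither group were Thy1 and Tcf21 well above background on both arrays. Single markers of other cell types also had ratios above 0 on both arrays, with 1.03 and 0.68 for Cdh5 of endothelium, 0.61 and 0.59 for Cnn1 of smooth muscle and 0.54 and 0.50 for S100b of Schwann cells. Like that of Dpt, the Cdh5 control was well above background on 1 array only. Of the tested markers, 3 of 4 of endothelium, 1 of 3 of smooth muscle, 1 of 4 of Schwann cells, 1 of 3 of leukocytes and 0 of 1 of adipocytes did so. Over all tested genes that share was 40.6%. Of the 6 myoblast markers, 3 were above 0 on both arrays and 1 below, with a median of 0.15, and Myf5 had 0.21 and 0.59. The same probes summed to 140512 and 120488 units in knockdown cells, against 145849 and 122885 in control cells. The part of other cell types' markers in the collagen ratios was not tested, and in such bulk RNA more cells of a type and more RNA per cell cannot be told apart.

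Promoters of the members were read from RefSeq (GRCm38.p6), which held 11 windows for 9 of the 10 genes. The windows upstream of the type VI genes are shown because Col6a1 and Col6a2 are neighbours on chromosome 10 and read higher together while Col6a3, on chromosome 1, did not. Each is 250 bases up to the annotated start, on the minus strand, with capitals for the GC box GGGCGG, the CCAAT box CCAAT, the TATA box TATAAA and the AP-1 site TGANTCA on either strand.
Col6a1 promoter, chr10:76726045-76726294: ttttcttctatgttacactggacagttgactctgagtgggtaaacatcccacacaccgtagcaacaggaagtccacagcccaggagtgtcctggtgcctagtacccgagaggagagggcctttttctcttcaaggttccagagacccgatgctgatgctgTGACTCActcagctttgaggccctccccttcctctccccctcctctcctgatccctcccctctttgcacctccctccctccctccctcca
Col6a2 promoter, chr10:76623631-76623880: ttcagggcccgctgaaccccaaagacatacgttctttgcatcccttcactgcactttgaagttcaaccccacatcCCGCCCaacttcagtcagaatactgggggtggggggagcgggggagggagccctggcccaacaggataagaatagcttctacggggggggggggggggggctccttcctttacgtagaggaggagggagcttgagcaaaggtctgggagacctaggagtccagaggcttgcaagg
Col6a3 promoter, chr1:90843972-90844221: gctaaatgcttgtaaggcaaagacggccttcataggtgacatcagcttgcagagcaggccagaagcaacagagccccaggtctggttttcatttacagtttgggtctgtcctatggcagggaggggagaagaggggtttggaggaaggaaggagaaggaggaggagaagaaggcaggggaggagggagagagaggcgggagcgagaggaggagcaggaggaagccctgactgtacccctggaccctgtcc
The Col6a1 window held an AP-1 letter match, as did 6.7% of all 32851 windows, and no GC box. It also held 1 E-box (CANNTG, not put in capitals), as 66.2% of all windows held at least 1. The Col6a2 window shown held 1 GC box and a second, nearer start of this gene had 3, while 32.7% of all windows held any. The Col6a3 window held none of these letters. Over the 11 member windows, 6 held a GC box, 4 a CCAAT box (33.8% of all windows), 0 a TATA box (12.4%) and 4 an E-box CANNTG (66.2%), the motif that myogenic factors bind. The annotated starts of Col4a1 and Col4a2 lie 21 bp apart on opposite strands, and these windows held 31 and 26 CpG pairs, against a median of 6 over all windows and 3 in the Col6a1 window.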

How the data were processed

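Signals of 2 arrays with 2 colours each were used. The authors deposited spot mean and background intensity in both channels, processed intensity, the log10 of Cy5 over Cy3, and spot flags of 0 or 1, per the file headers, which name Agilent Feature Extraction 9.5.3.1 and mm8 coordinates. The deposited value table held log2 ratios of knockdown over control that matched the log10 values, once rescaled, to 0.001 for 99.4% of probes, with a median of 0. It was blank for 1165 and 2004 of 40477 probes, for a reason not given in the sources used here.

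Intensities were corrected with normexp (offset 50) and normalised by loess (span 0.3) within arrays in limma 3.58.1 (R 4.3.3). The 1639 control spots had weight 0, and control spots and 154 and 237 outlier spots were left out. A probe was kept if on each array 1 channel or more was well above background, and the brightest probe stood for a gene. Names came from RefSeq accessions (23374 of 41174 probes), current symbols (6735), synonyms (2919) or the file (8146). Log2 ratios were tested against 0 with lmFit and eBayes, two-sided, with Benjamini-Hochberg adjustment, and the fit was tested on simulated data. The number of arrays limits the precision. The members, gene lists and tests were chosen with earlier results of these data known. All 10 members were named, and of each list the 3 genes with the largest ratios of the same sign on both arrays and the gene nearest to 0. Alternatives changed the background correction, normalization, dim filter, probe summary, value source or arrays used.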

Additional observations from a re-analysis of the deposited data

How the results depend on the processing

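Ratios were recomputed under 7 other settings and with each array alone. Col6a1 and Col18a1 had no value on both arrays in the deposited value table, and Col12a1 did not pass the filter on both channels, so these had 6 settings. Members at least 2-fold higher on both arrays numbered 2 in place of 1 with Feature Extraction's processed signals. They also numbered 2 with the mean over tested probes, in each case by the addition of Col6a2. In the deposited value table the 1 such member was Col6a2, at 1.11 and 1.29. Members above 0 on both arrays numbered 3 in the deposited value table, which had values for 7 genes on both arrays. It held Col4a1, Col8a1 and Col12a1 at -0.06, -0.0012 and -0.01 on array 2. Otherwise, members above 0 on both arrays numbered from 5 (processed signals) to 9 (median centring). Counts on a single array are not counts on both arrays. At least 2-fold higher were 1 member on array 1 alone and 2 on array 2 alone, and above 0 were 8 on each alone. Median centring without loess called 3093 genes in the fit across all genes, 3035 higher and 58 lower, 5 of them members, against 0 called under the other 6 settings, while it moved the median of all genes to 0.21. It put Col6a3 at 0.46 and Col8a1 at 0.60, and the other non-fibrillar collagens at a median of 0.15. The mean of Col6a3 was -0.08 in the deposited value table, from 0.09 and -0.26, against 0.14 and -0.07 with processed signals. Col8a1 had 0.14 and 0.02 with processed signals. A probe blank in the deposited table gave way to the gene's next brightest probe. The deposited values of Col6a3 and Col8a1, and the count of members above 0, may therefore reflect another probe. Over the settings with both arrays, the mean of Col6a1 ran from 1.98 to 2.24 and that of Col6a2 from 0.91 to 1.20, and with a single array they ran from 1.46 to 2.50 and from 0.81 to 1.00. Over all genes, those at least 2-fold higher on both arrays numbered 289 with median centring, 230 with processed signals and 223 in the deposited table, against 114. The cause was not tested. Each array compares both RNAs directly, so the array is the pair and the log2 ratios tested were already paired. No further pairing was possible. Dim signal limits Col12a1 and Col15a1.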

Other observations

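Several collagens outside the 10 genes differed between the arrays, and these were singled out after their values were seen. The Col4a6 probe A_52_P516409, for a type IV chain encoded beside Col4a5, read 105 units in knockdown cells on array 2, against 521 in control cells, a log2 ratio of -2.31, whereas on array 1 it was not well above background in either channel (-0.03). The Col4a6 probe A_52_P447196, read well above background in all channels, had -0.01 and 0.16. Col7a1, the anchoring fibril collagen of skin, had 0.26 on array 1 and -1.07 on array 2. Both probes of Col17a1, a transmembrane collagen of epithelia, turned in the same way, with 0.54 and -0.74 for A_51_P358344 and 0.28 and -0.45 for A_51_P358342. Col14a1, which binds collagen fibrils, had -0.23 and 1.15 for A_51_P326529, whose control did not pass background on array 2.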
